A study of Mus musculus with 28 samples.

Results

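Messenger RNA of 8 genes for secreted or surface proteins of blood coagulation and of the extracellular matrix was followed in resident peritoneal macrophages of mice. The genes were F5, F7, F10, Thbs1, Fn1, Vcan, Prg4 and Selp. They were chosen by symbol in the table that pairs the probe sets of the array with genes, with the probe set of highest mean signal for each gene. Mean signal was thus the measured value that could be selected on, but it chose nothing, because each of the 7 genes found there had 1 probe set with a single symbol. Selp, which encodes the adhesion receptor P-selectin, had none and has no values here. The 7 measured genes are among 13512 genes tested, and all 7 passed the filter on low signals. Vcan lay above the detection floor on 24 of 28 arrays and the other 6 genes on all 28. The floor was 6.32 on the log2 scale, under which lay the mean signal of 95% of the probe sets for olfactory and vomeronasal receptors. Values below are log2 of the RMA signal, a summary of all probes of a probe set after normalisation between arrays, and are compared within a gene only.

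There were 28 arrays in 7 groups of 4 independent samples, all from mice of C57BL/6 background. Mice that received no injection were either wild type or ATF7 knockout. ATF7 belongs to the ATF/CREB transcription factors and responds to stress. How the knockout was made and how old the uninjected mice were is not given in the sources used here. The other 5 groups were wild-type mice injected intravenously at 7 to 8 weeks of age with PBS as the control, LPS from E. coli, PGN (peptidoglycan), imiquimod (IMQ, a ligand of TLR7) or β-glucan (BG, a fungal cell wall polysaccharide). They were analysed 3 to 4 weeks later, at 10 to 12 weeks of age, and the sample names give 3 weeks. In every group the cells were washed from the peritoneal cavity without thioglycollate and kept overnight in serum-free medium, and non-adherent cells were removed. The values therefore describe adherent cells after a night in culture, not cells as they lay in the animal. No injected knockout mice were analysed here, so the knockout and the ligands are separate comparisons.

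Coagulation factors are mostly made by the liver, but resident macrophages of the peritoneal cavity make several of them. Factor VII, once bound to tissue factor, activates factor X, and active factor X with its cofactor factor V turns prothrombin into thrombin. Large peritoneal macrophages are known for expressing F5 and for forming clots and aggregates in peritoneal fluid with it. Thrombospondin 1 and fibronectin are adhesive glycoproteins that bind cell surface receptors and each other, versican is a large chondroitin sulphate proteoglycan that binds hyaluronan, and proteoglycan 4, or lubricin, is the lubricating mucin-like protein of joints and serous surfaces.

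The DNA just before the annotated start of F5 and of F10 is shown because F5 was low in both the knockout and the BG group while F10, the protease it serves as cofactor, varied least. Each sequence is the 250 bases that end 1 base before the RefSeq gene span, on the gene's own strand, 5′ to 3′, build GRCm38.p6, with each CpG dinucleotide in capitals. The windows are chr1:164151585-164151834 for F5 and chr8:13037058-13037307 for F10, both on the plus strand.
F5: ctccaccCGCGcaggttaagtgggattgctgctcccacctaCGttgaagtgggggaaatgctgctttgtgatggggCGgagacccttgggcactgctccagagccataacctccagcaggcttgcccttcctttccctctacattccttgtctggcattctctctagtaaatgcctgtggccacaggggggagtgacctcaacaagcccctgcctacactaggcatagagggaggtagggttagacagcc
F10: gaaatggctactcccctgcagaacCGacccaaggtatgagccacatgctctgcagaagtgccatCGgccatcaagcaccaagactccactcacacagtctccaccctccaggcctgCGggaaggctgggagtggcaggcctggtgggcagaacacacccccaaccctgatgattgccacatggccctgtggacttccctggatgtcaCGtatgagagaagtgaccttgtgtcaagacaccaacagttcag
The windows hold 4 CpG dinucleotides each, with a GC content of 57.2% and 57.6%. For F7 and Vcan the table's window lies inside the annotated gene span, at another start than its outer end, and is not shown. On both strands 5 motifs were searched. They were the ATF/CREB palindrome TGACGTCA, the AP-1 motif TGACTCA, a pair of motifs of GATA factors (AGATAA, and with another first base TGATAA) and the TATA motif TATAAA. None occurs in the windows of F5, F10 or Selp. Among 32851 RefSeq windows of the same length, TGACGTCA is found in 1.546%, TGACTCA in 4.463%, AGATAA in 9.988%, TGATAA in 7.942% and TATAAA in 12.368%, so most windows lack each of them.

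Arrays of 1 group correlated at 0.985 to 0.996 over all probe sets, and arrays of different groups at 0.980 to 0.995. As a check of the knockout labels, the probe set of Atf7 with the larger difference read 6.94 to 7.19 on the knockout arrays and 9.85 to 10.09 on the wild-type arrays. The other Atf7 probe set read 10.25 to 10.34 against 10.64 to 10.80. Wild-type arrays 1 and 2 stood apart from wild-type arrays 3 and 4, with scores of 19.6 and 17.6 against 7.74 and 6.81 on the second principal component of the tested genes, which holds 19.65% of their variance. Results against wild type are therefore also given without both arrays, a setting chosen after seeing the data that leaves 2 wild-type arrays. The BG arrays stood apart from the other 24. On 461 of 13512 tested genes all 4 BG arrays lay below every other array, and on 513 above. The labels give no array dates or batches, so a batch that coincides with a group cannot be told apart from the group.

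Without any injection, 5 of the 7 genes were lower in the knockout than in wild type by limma, with p-values adjusted by Benjamini-Hochberg over all genes tested and a threshold of 0.05. They were F5, F7, Thbs1, Vcan and Fn1, and their changes ran from -2.18 for Vcan, a value that rests on knockout signals under the floor, to -0.29. None was higher. The same 5 passed without wild-type arrays 1 and 2. Of all genes tested, 10.7% were lower, 17.7% higher and 28.3% changed in either direction. The 4 knockout arrays did not overlap the 4 wild-type arrays for 6 of the 7 genes, against 21.9% of all genes. The median change was -0.57 over the 7 genes and 0.0053 over all genes. In these bulk samples, less RNA per cell and fewer cells that express a gene cannot be told apart.

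Weeks after BG, 5 of the 7 genes were lower than after PBS, namely Thbs1, Vcan, F5, Fn1 and Prg4, and none was higher. The background was higher here, with 21.4% of all genes lower, 20.2% higher and 41.6% changed in either direction. Arrays of the 2 groups did not overlap for the same 5 genes, against 40.7% of all genes. The median change was -0.50 over the 7 genes and 0.019 over all genes. Of the 5 genes lower in the knockout, F7 was not lower after BG, and of the 5 lower after BG, Prg4 was not lower in the knockout. The knockout was set against uninjected mice and BG against PBS-injected mice, so these comparisons share no array.

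After LPS none of the 7 genes passed the test, against 9.88% of all genes. Prg4 and Vcan, 2 of the 7, had an unadjusted p under 0.05 in limma, as did 4453 of all 13512 genes. After PGN Thbs1 alone passed, lower, against 1.81% of genes lower and 3.91% in either direction. After IMQ Vcan alone passed, lower, against 2.6% of genes lower and 5.69% in either direction. PBS-injected mice had lower F10 and Fn1 than uninjected wild-type mice, against 12.9% of genes lower and 32.7% in either direction. All 4 ligands were compared with the same 4 PBS arrays.

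**Figure D1:**
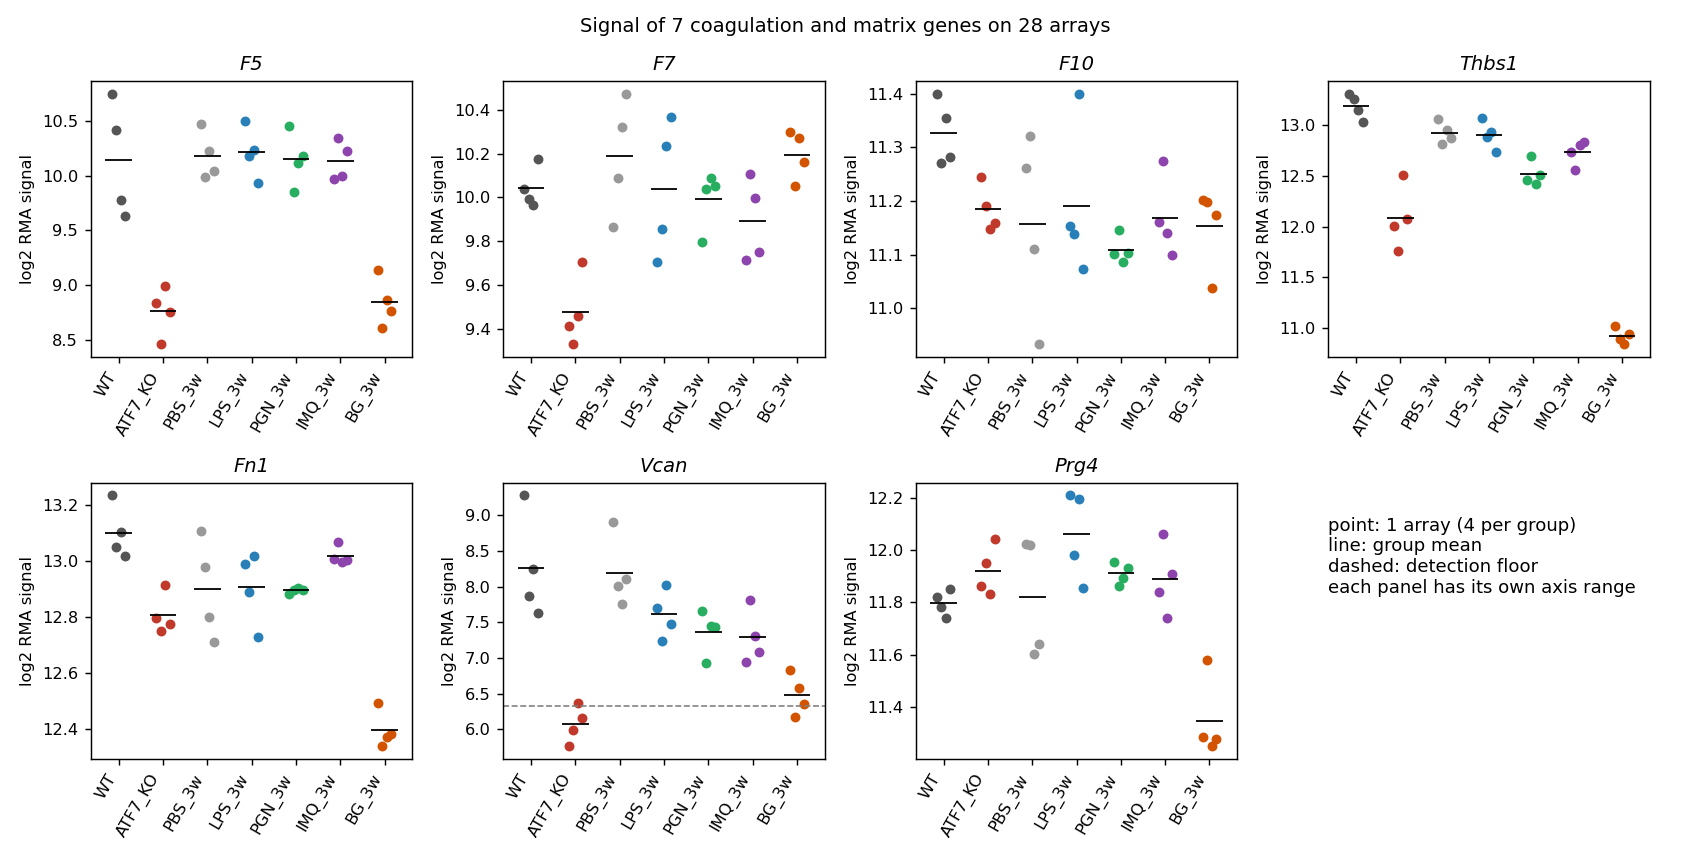
Log2 RMA signal of each measured gene on every array, by group, with the group mean as a line and the detection floor of 6.32 dashed where it falls in range; each panel has its own axis. F5 and Vcan are low in the knockout and after BG, Thbs1 is lowest after BG at 10.84 to 11.01, and F7 has its low group, 9.33 to 9.71, in the knockout.

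F5 encodes coagulation factor V, the cofactor that speeds up thrombin formation by active factor X. In the 4 wild-type arrays F5 measured 10.75, 10.42, 9.78 and 9.63, and in the knockout 8.84, 8.46, 8.99 and 8.76. The lowest wild-type array lay above the highest knockout array, although wild type was the most variable group for this gene, with arrays 1 and 2 above arrays 3 and 4. The mean fell from 10.14 ± 0.53 (SD, n = 4) to 8.76 ± 0.22 (n = 4), a 2.60-fold difference with a log2 change of -1.38 and a 95% confidence interval of -1.75 to -1.01 (limma adjusted p = 2.1e-06). The exact permutation p was 0.0286, two-sided, the smallest that 4 against 4 arrays allow. Among the falls of all tested genes it had rank 16 of 13512. Without wild-type arrays 1 and 2 the log2 change of F5 was -0.94 (limma adjusted p = 0.00032).

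After PBS the F5 arrays measured 10.47, 9.98, 10.23 and 10.04, and after BG 9.14, 8.61, 8.86 and 8.77. Again no array overlapped. The log2 change was -1.34 (95% confidence interval -1.71 to -0.97), 2.53-fold lower, at rank 6 of 13512 among falls (limma adjusted p = 1.8e-06, exact permutation p = 0.0286). After the other ligands the F5 arrays overlapped those after PBS. They measured 10.50, 10.18, 10.23 and 9.93 after LPS, 10.45, 9.85, 10.12 and 10.18 after PGN, and 9.97, 10.34, 10.00 and 10.22 after IMQ. Their log2 changes from PBS were 0.031 (-0.34 to 0.40), -0.029 (-0.40 to 0.34) and -0.048 (-0.42 to 0.32), intervals that leave out a fall of the size seen after BG. The group means thus formed an upper set of 5, from 10.13 to 10.21, whose arrays overlapped one another, and a lower pair, BG at 8.84 and the knockout at 8.76, whose arrays also overlapped. The place of wild type in the upper set depends on its arrays 1 and 2. Without them F5 was higher after PBS than in wild type by 0.48 (0.13 to 0.82), which did not pass (limma adjusted p = 0.079).

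F7 encodes factor VII, the protease that starts the extrinsic pathway. Its wild-type arrays measured 10.04, 9.99, 9.97 and 10.18, and its knockout arrays 9.41, 9.33, 9.46 and 9.71. The groups did not overlap, and the gene was 1.48-fold lower in the knockout, with a log2 change of -0.57 and a 95% confidence interval of -0.82 to -0.31 (limma adjusted p = 0.001, exact permutation p = 0.0286). After BG the F7 arrays, at 10.30, 10.05, 10.27 and 10.16, lay inside the PBS range of 9.87, 10.09, 10.32 and 10.48. The log2 change after BG was 0.008, with an interval of -0.25 to 0.26, which leaves out the fall seen in the knockout. Values were 9.71 to 10.37 after LPS, 9.79 to 10.09 after PGN and 9.71 to 10.11 after IMQ, and their changes of -0.15, -0.20 and -0.30 from PBS did not pass (limma adjusted p = 0.41, 0.43 and 0.17). The knockout thus had the lowest F7 mean, 9.48 ± 0.16 (n = 4), while the other 6 means ran from 9.89 to 10.20 with overlapping arrays. The highest knockout array, at 9.7051, lay just under the lowest LPS array, at 9.7053.

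F10 encodes factor X, the protease that factor VII and tissue factor activate. Its signal was the steadiest of the 7, with group means from 11.11 to 11.33. The wild-type arrays measured 11.40, 11.27, 11.35 and 11.28, and the knockout arrays 11.24, 11.19, 11.15 and 11.16. These arrays did not overlap, yet the log2 change of -0.14 (95% confidence interval -0.28 to -0.0061) did not pass over all genes (limma adjusted p = 0.11, exact permutation p = 0.0286). After PBS they read 11.26, 11.32, 11.11 and 10.93, lower than in wild type by 0.17 (limma adjusted p = 0.048), and the 2 groups overlapped (exact permutation p = 0.11). The F10 call against wild type was lost when wild-type array 1, 2 or 3 or PBS array 3 or 4 was left out, and over all 8 omissions the changes ran from -0.23 to -0.096. It was also lost under 8 of 12 other settings of the analysis, with adjusted p-values of 0.052 to 0.23. After BG the F10 arrays read 11.20, 11.20, 11.04 and 11.17, a log2 change of -0.0031 with an interval of -0.14 to 0.13.

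Thbs1 encodes thrombospondin 1, an adhesive glycoprotein also stored in platelets. In wild type it measured 13.31, 13.26, 13.15 and 13.03, and in the knockout 12.01, 11.76, 12.51 and 12.07. Every knockout array was below every wild-type array. The gene was 2.15-fold lower, with a log2 change of -1.10 and a 95% confidence interval of -1.31 to -0.89 (limma adjusted p = 1.4e-08, exact permutation p = 0.0286), at rank 37 of 13512 among falls.

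After BG, Thbs1 measured 11.01, 10.89, 10.84 and 10.94 against 13.07, 12.82, 12.95 and 12.87 after PBS. The BG arrays were also below all 4 knockout arrays. The log2 change was -2.01 (95% confidence interval -2.22 to -1.80), 4.02-fold lower, and at rank 1 of 13512 it was the largest fall among all tested genes (limma adjusted p = 7.7e-14, exact permutation p = 0.0286). After PGN the arrays read 12.46, 12.70, 12.42 and 12.51, none overlapping PBS. The gene was 1.32-fold lower there, with a log2 change of -0.40 and an interval of -0.61 to -0.19 (limma adjusted p = 0.023, exact permutation p = 0.0286). The PGN call was lost when PBS array 1 or 3 or PGN array 1, 3 or 4 was left out. Over all 8 omissions the changes ran from -0.46 to -0.36 and the adjusted p-values from 0.017 to 0.078.

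After IMQ, Thbs1 read 12.74, 12.56, 12.80 and 12.84, and after LPS 13.07, 12.88, 12.93 and 12.73. Both sets overlapped PBS. Their log2 changes were -0.19 (-0.40 to 0.018) and -0.023 (-0.23 to 0.19) and did not pass (limma adjusted p = 0.29 and 0.89). In order of their means the groups were wild type at 13.19, PBS at 12.93, LPS at 12.90, IMQ at 12.73, PGN at 12.52, the knockout at 12.09 and BG at 10.92. Arrays of neighbouring groups in this order overlapped except between the knockout and BG. PBS was lower than wild type by 0.26, which did not pass (limma adjusted p = 0.051).

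Fn1 encodes fibronectin, which macrophages lay down on the surfaces they adhere to. The wild-type arrays measured 13.24, 13.05, 13.10 and 13.02, and the knockout arrays 12.80, 12.75, 12.91 and 12.78. They did not overlap, and the gene was 1.23-fold lower in the knockout (log2 change -0.29, 95% confidence interval -0.43 to -0.16, limma adjusted p = 0.0012, exact permutation p = 0.0286). After PBS it measured 13.11, 12.98, 12.80 and 12.71, and after BG 12.49, 12.34, 12.37 and 12.38. All 4 BG arrays lay below the lowest value of every other group. The log2 change was -0.50 (-0.64 to -0.37), 1.42-fold lower (exact permutation p = 0.0286, limma adjusted p = 1.0e-06).

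After LPS, PGN and IMQ, Fn1 changed by 0.0072, -0.0034 and 0.12 from PBS, and none of these passed (limma adjusted p = 0.95, 0.99 and 0.31). PBS itself was lower than wild type by 0.20 (limma adjusted p = 0.021), with overlapping arrays (exact permutation p = 0.14). That Fn1 call was lost when wild-type array 1 or PBS array 3 or 4 was left out, and over all 8 omissions the changes ran from -0.27 to -0.14. It was also lost with each array centred on its median (log2 change -0.15, adjusted p = 0.064), with only the compared groups in the fit (adjusted p = 0.0997) and without wild-type arrays 1 and 2 (-0.16, adjusted p = 0.21). The knockout mean of 12.81 ± 0.073 (n = 4) lay close to the PBS mean of 12.90 ± 0.18, and the arrays of these groups overlapped.

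Vcan encodes versican. Its wild-type arrays measured 9.28, 7.86, 8.24 and 7.63, and its knockout arrays 5.77, 5.99, 6.37 and 6.16. Of the knockout arrays, 3 lay under the floor of 6.32, as did their mean of 6.07 ± 0.25 (n = 4), so no fold is given and the size of the difference has no exact value. The groups did not overlap, and the gene was lower in the knockout (limma adjusted p = 9.2e-07, exact permutation p = 0.0286). With every signal under the floor set to the floor, a setting chosen after seeing the data, the log2 difference was -1.92 (limma adjusted p = 5.9e-06). After PBS the arrays read 8.90, 8.00, 7.76 and 8.11, and after BG 6.83, 6.18, 6.58 and 6.35, 1 of them under the floor. The BG arrays lay below all PBS arrays, with a log2 change of -1.71 (-2.25 to -1.16), 3.26-fold lower, at rank 2 of 13512 (limma adjusted p = 1.4e-05, exact permutation p = 0.0286).

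The Vcan means after the other ligands also lay under the PBS mean. The gene measured 6.95, 7.81, 7.31 and 7.08 after IMQ, and 1 of these arrays lay inside the PBS range. The IMQ change of -0.91 (95% confidence interval -1.45 to -0.36), 1.87-fold lower, passed (limma adjusted p = 0.043, exact permutation p = 0.057). It was lost without PBS array 1 or 4 or without IMQ array 1, 3 or 4. Over all 8 omissions the changes ran from -1.08 to -0.67 and the adjusted p-values from 0.028 to 0.14. It was also lost under 4 of 12 other settings of the analysis, with adjusted p-values of 0.051 to 0.11. After PGN the arrays read 7.66, 6.92, 7.45 and 7.44, all below the PBS arrays, but the change of -0.83 did not pass (limma adjusted p = 0.083, exact permutation p = 0.0286). After LPS they read 7.70, 7.24, 8.02 and 7.48, a change of -0.58 that did not pass either (limma adjusted p = 0.13).

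Prg4 encodes proteoglycan 4. Its wild-type arrays measured 11.82, 11.78, 11.74 and 11.85, and its knockout arrays 11.86, 11.95, 11.83 and 12.04. These overlapped, and the log2 change of 0.12 (95% confidence interval -0.061 to 0.31) did not pass (limma adjusted p = 0.34). After PBS it measured 12.02, 12.02, 11.60 and 11.64, and after BG 11.28, 11.58, 11.25 and 11.28. The highest BG array lay just under the lowest PBS array. The log2 change after BG was -0.47 (-0.66 to -0.29), 1.39-fold lower (exact permutation p = 0.0286, limma adjusted p = 0.00015). After LPS, Prg4 measured 12.21, 11.98, 12.20 and 11.85, overlapping PBS, with a change of 0.24 that did not pass (limma adjusted p = 0.076). That LPS change passed when PBS array 1 or 2 or LPS array 4 was left out, with values of 0.17 to 0.31 over the 8 omissions.

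**Figure D2:**
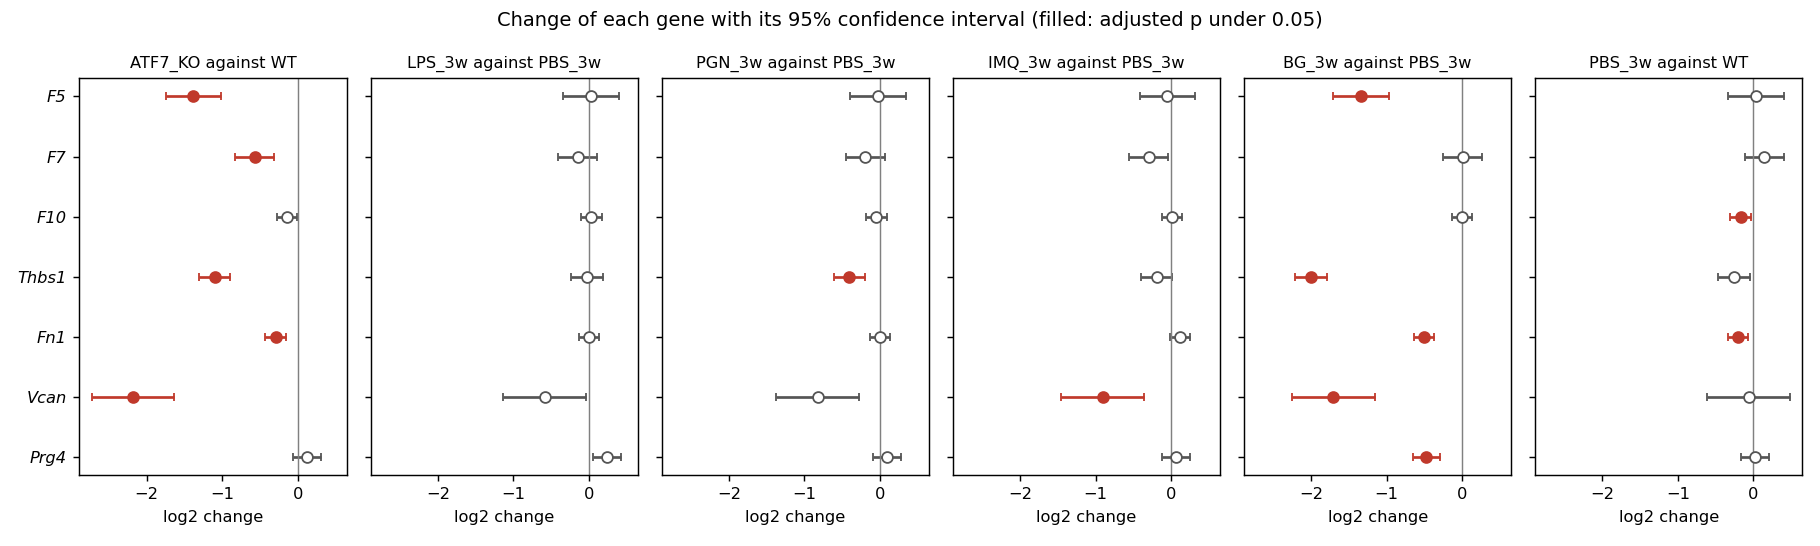
Log2 change of each gene in the 6 comparisons with a control, as points with 95% confidence intervals from limma; filled points had an adjusted p under 0.05. The Vcan point in the knockout rests on signals under the floor. In the plot 5 genes are filled to the left of 0 in the knockout panel and 5 in the BG panel, while 1 is filled after PGN, 1 after IMQ, none after LPS and 2 in PBS against wild type.

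Direct comparisons tested whether the ligands differed from one another. F5, Thbs1, Vcan, Fn1 and Prg4 were each higher after LPS, after PGN and after IMQ than after BG, 5 of 7 genes in each of 3 pairs. The background of higher genes was 16.7% for LPS, 18.9% for PGN and 21.3% for IMQ. Thbs1 differed most, by 1.98, 1.60 and 1.81 (limma adjusted p of at most 1.6e-11). F5 differed by 1.37, 1.31 and 1.29 (limma adjusted p of at most 3.3e-06). Vcan differed by 1.12, 0.88 and 0.80 (limma adjusted p = 0.0017, 0.013 and 0.02), and the last of these was lost without IMQ array 2 or without BG array 2 or 4. F7 and F10 did not pass in any of the 3 pairs.

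Among LPS, PGN and IMQ, 1 difference passed. Thbs1 was higher after LPS than after PGN by 0.38 (95% confidence interval 0.17 to 0.59, limma adjusted p = 0.016, against 2.98% of genes higher), and this was lost without LPS array 1 or PGN array 3. LPS and IMQ differed for none of the 7 genes, against 19.2% of all genes called. None of the 7 had an unadjusted p under 0.05 in limma, against 4792 of all 13512 genes. PGN and IMQ differed for none of 13512 genes in limma, with 669 at an unadjusted p under 0.05, 1 of them among the 7 (Thbs1, -0.21). Some of these pairs share a group.

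The knockout effect was then set against each ligand effect with an interaction term. F5, Thbs1, Vcan and Fn1 fell more in the knockout than after LPS, PGN or IMQ, 4 of 7 genes in each case. The background of genes lower in this sense was 10.5% for LPS, 7.19% for PGN and 8.53% for IMQ. F7, F10 and Prg4 did not pass against any of these ligands. For F7 the differences were -0.42, -0.37 and -0.27 (limma adjusted p = 0.071, 0.15 and 0.31). For F5 they were -1.41, -1.35 and -1.33, and for Thbs1 -1.08, -0.70 and -0.91. The Vcan values use the knockout signals under the floor. With those set to the floor they were -1.34, -1.09 and -1.01, and the last did not pass (limma adjusted p = 0.01, 0.044 and 0.058). Among the 4 genes that fell more in the knockout, the smallest differences were those of Fn1, -0.30, -0.29 and -0.41 (limma adjusted p = 0.017, 0.029 and 0.002). The Fn1 difference from PGN was lost without wild-type array 1, knockout array 2 or PBS array 3 or 4, and those from LPS and PGN were lost with arrays centred on their medians. Without wild-type arrays 1 and 2, the Fn1 differences from LPS and PGN (limma adjusted p = 0.094 and 0.12) and the Vcan differences from PGN and IMQ (0.058 and 0.07) did not pass.

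Against BG the interaction separated the genes. F7 fell more in the knockout, by -0.58 (95% confidence interval -0.94 to -0.21, limma adjusted p = 0.016, against 11.2% of genes lower). Thbs1 fell more after BG, with a difference of 0.91 (0.61 to 1.20, limma adjusted p = 4.3e-05), and so did Prg4, with 0.60 (0.34 to 0.86, limma adjusted p = 0.00097), against 18% of genes higher. For F5 the difference between the 2 effects was -0.044 with an interval of -0.57 to 0.48, which did not pass (limma adjusted p = 0.91) and leaves room for a difference. Without wild-type arrays 1 and 2 the F5 difference was 0.39 (-0.050 to 0.84), which did not pass either (limma adjusted p = 0.23). For Vcan the difference was -0.48 (-1.25 to 0.30), which did not pass (limma adjusted p = 0.35). With signals under the floor set to the floor it was -0.25 (limma adjusted p = 0.64). Both Vcan falls end near the floor, with 1 of 4 knockout arrays and 3 of 4 BG arrays above it, so neither value can rank their sizes. Fn1, at 0.21 (0.022 to 0.40), did not pass either (limma adjusted p = 0.085).

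The 7 genes did not vary as 1 block. Over the 28 arrays the log2 signals of Thbs1 and Fn1 correlated at 0.90 and those of F5 and Vcan at 0.85, while F7 correlated with F10 at -0.12 and with Prg4 at -0.42. Group differences enter these values. For deviations from the group means, the correlation was 0.50 for Thbs1 and Fn1, 0.69 for F5 and Vcan, and 0.72 for F10 and Fn1. The arrays share normalisation, so these correlations describe the arrays and have no test.

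Among all other tested genes the one most like F5 over the 28 arrays was Gata6, with a correlation of 0.96, and 0.80 for deviations from the group means. Gata6 is the transcription factor that maintains large peritoneal macrophages. It measured 8.97 ± 0.23 in the knockout, 9.41 ± 0.13 after BG and 10.34 to 10.51 in the means of the other 5 groups (n = 4 each). Its 8 arrays of the knockout and BG groups lay below the other 20, as did those of F5. Thbs1 was most like Hif1a, the oxygen-sensing transcription factor, at 0.94, and 0.42 for deviations. Hif1a read 10.58 to 10.67 after BG and 11.12 to 11.80 on the 24 other arrays.

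Prg4 was most like Plek, which encodes the platelet and leukocyte protein pleckstrin, at 0.93 (0.82 for deviations). Fn1 was most like Ano6, which encodes a phospholipid scramblase, at 0.92 (0.68 for deviations), with Acaca, the cytosolic acetyl-CoA carboxylase, at 0.92 as well (0.90 for deviations). Vcan was most like Oscp1 at 0.91 (0.65 for deviations), F7 like Fbxl2 at 0.86 (0.70) and F10 like Antxr1 at 0.73 (0.70). F10 had the weakest best match, and it was also the gene with the narrowest range of group means.

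**Figure D3:**
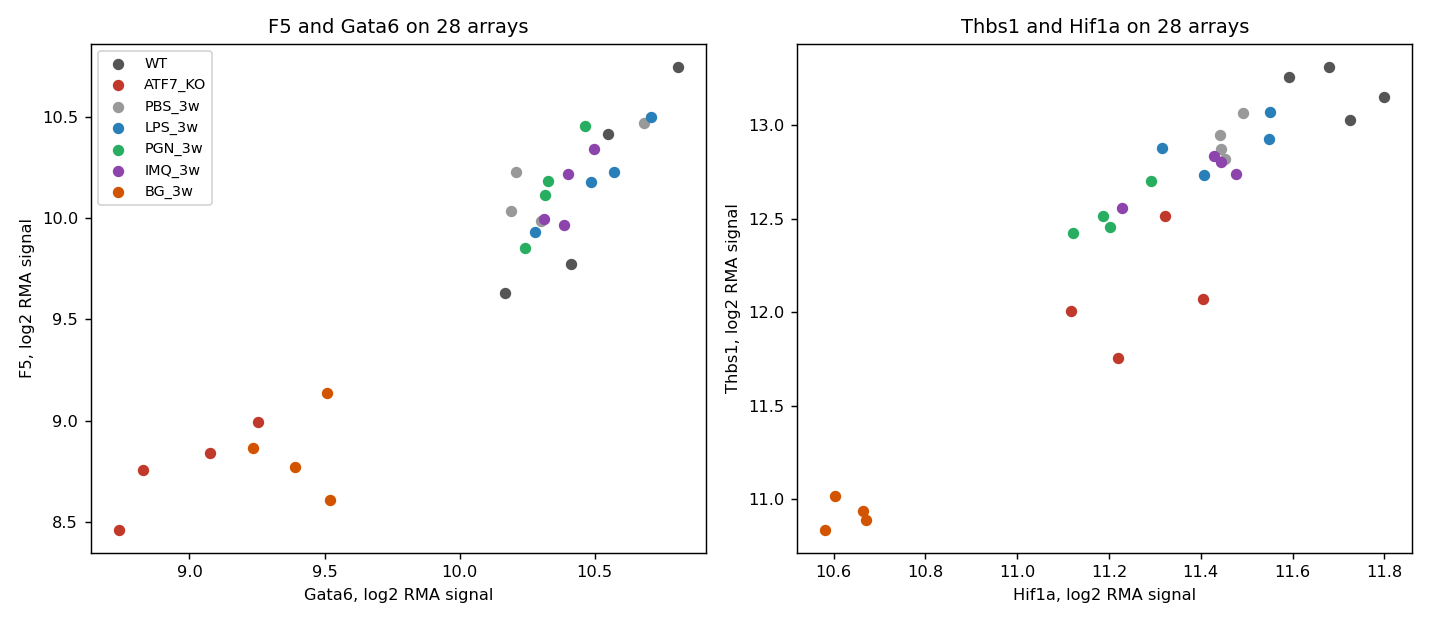
Log2 RMA signal of F5 against Gata6 (left) and of Thbs1 against Hif1a (right), 1 point per array, coloured by group. On the left the 4 knockout and 4 BG arrays form a low set apart from the other 20; on the right the 4 BG arrays stand alone at the bottom and the knockout arrays lie between.

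Other genes of coagulation moved in both directions. Of all genes tested, 17.7% were higher and 10.7% lower in the knockout, and 20.2% higher and 21.4% lower after BG. The counts of each list below stand beside these shares. Of 10 tested coagulation factors and cofactors, 4 were higher and 1 was lower in the knockout (limma). Gas6, a vitamin K-dependent ligand of TAM receptors, was 2.0-fold higher (adjusted p = 6.2e-06), and Mcfd2 and Lman1, whose products carry factors V and VIII out of the endoplasmic reticulum together, were higher by 0.34 and 0.29 (adjusted p = 2.6e-06 and 0.00048). Vkorc1, the enzyme that recycles vitamin K, was lower by 0.28 (adjusted p = 0.0029). After BG, 3 were higher and 3 lower. Vkorc1 fell by 0.59 (adjusted p = 2.5e-07), F13a1, the clot-crosslinking transglutaminase subunit, fell by 0.75 (adjusted p = 4.8e-05), and Ggcx, the carboxylase that matures factors VII and X, fell by 0.23 (adjusted p = 0.0016). In the knockout F13a1 was higher by 0.40, a call lost without wild-type array 1 or 2 or knockout array 3, among others. The median change of the list was 0.095 in the knockout and -0.027 after BG, against 0.0053 and 0.019 over all genes.

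Of 10 tested coagulation inhibitors and protease receptors, 3 were higher and 2 lower in the knockout, against 17.7% and 10.7% of all genes. Procr, the endothelial protein C receptor, was higher by 1.03 (limma adjusted p = 4.1e-06) and Anxa5, a phospholipid-binding anticoagulant protein, by 0.30 (adjusted p = 0.0003). The lower pair, Thbd and Pros1, lost their calls without wild-type array 1, 2 or 3 or knockout array 2, among others. Without wild-type arrays 1 and 2 the calls were 2 higher and none lower, and among the coagulation factors 3 higher and none lower. After BG, 1 was higher and 3 were lower, against 20.2% and 21.4% of all genes. Tfpi, the inhibitor of the tissue factor pathway, fell by 0.65 (adjusted p = 2.9e-05) and Pros1, protein S, by 0.24 (adjusted p = 0.0032), while Procr rose by 0.48 (adjusted p = 0.0078). In the knockout Tfpi was higher by 0.42, a call lost without wild-type arrays 1 and 2 together. The list medians were -0.013 and 0.074.

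Of 7 tested genes of fibrinolysis, Serpinb2 and Plau changed in the knockout, against 28.3% of all genes. Serpinb2, an inhibitor of plasminogen activators, fell by 1.39 (limma adjusted p = 2.0e-07), and Plau, which encodes urokinase, rose by 1.01 (adjusted p = 0.00012). After BG all 7 passed, 5 higher and 2 lower, against 41.6% of all genes, and the count was 4 without PBS array 1. Serpinb2 fell by 0.82 (adjusted p = 0.00012), Plgrkt, a plasminogen receptor, fell by 0.46 (adjusted p = 3.8e-05), and Plau and its receptor gene Plaur rose by 0.84 and 0.53 (adjusted p = 0.00062 and 0.0017). The list medians were 0.0015 in the knockout and 0.36 after BG.

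Of 18 tested matrix glycoproteins and proteoglycans other than the 4 matrix genes above, 5 were lower and 1 was higher in the knockout. Of all genes, 10.7% were lower and 17.7% higher there, and 21.4% lower and 20.2% higher after BG. Tgfbi, an integrin-binding matrix protein, fell by 0.90 (limma adjusted p = 1.0e-07), Emilin2, an elastic fibre glycoprotein, by 0.72 (adjusted p = 2.8e-06) and Mfge8, a bridging protein of apoptotic cell uptake, by 0.37 (adjusted p = 0.00014). After BG, 7 were lower and 2 higher, with Mfge8 down by 0.48 (adjusted p = 3.0e-06), Ecm1 by 0.35 (adjusted p = 9.0e-05) and Srgn, the intracellular granule proteoglycan serglycin, by 0.25 (adjusted p = 4.4e-05). The list medians were -0.053 and 0.011. None of 13 collagens passed in the knockout, against 28.3% of all genes. None had an unadjusted p under 0.05 in limma, against 5137 of all 13512 genes. After BG, 4 collagens were higher by 0.19 to 0.28. That count was 1 without PBS array 2 or BG array 1, 2 without BG array 4, 0 with both control groups together or with only genes whose mean lay 1 above the floor, 7 with array weights and 9 with only the compared groups.

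Of 22 tested matrix receptors, 4 were higher and 5 lower in the knockout, and 5 were higher and 5 lower after BG. Of all genes, 28.3% were called in the knockout and 41.6% after BG. Itga6, the laminin receptor subunit α6, fell in both, by 1.14 and 0.60 (limma adjusted p = 4.3e-10 and 4.1e-06). Cd47, a receptor for thrombospondin 1, fell by 0.46 after BG (adjusted p = 3.6e-08), and the syndecan genes Sdc1 and Sdc4 rose by 0.65 and 0.64 (adjusted p = 1.7e-05 and 4.4e-06). In the knockout Sdc3 and Cd36, the latter also a thrombospondin receptor, rose by 0.50 and 0.31 (adjusted p = 2.2e-06 and 0.00059). The list medians were -0.029 and 0.018.

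Of 22 tested matrix proteases and inhibitors, 8 were higher and 2 lower in the knockout, and 6 were higher and 5 lower after BG. For these and the selectin genes below, the shares of all genes called were 28.3% in the knockout and 41.6% after BG. The collagenase gene Mmp13 rose in both, by 1.25 and 0.92 (limma adjusted p = 3.9e-05 and 0.0007). Adam15 and Adam17 rose by 0.28 each in the knockout (adjusted p = 1.2e-05 and 9.9e-05), and Mmp19 rose by 0.35 after BG (adjusted p = 0.0016). The knockout count of 10 was 6 without wild-type arrays 1 and 2, and the BG count of 11 was 7 without BG array 2. Of 10 tested selectin genes and genes of selectin ligands, 1 was higher and 2 lower in the knockout, with Cd24a, a P-selectin ligand, down by 1.41 (adjusted p = 7.3e-08). That count of 3 was 1 with only genes whose mean lay 1 above the floor. After BG 4 were lower, and 2 without BG array 4. B4galt1, a galactosyltransferase, fell by 0.49 there (adjusted p = 2.4e-07).

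**Figure D4:**
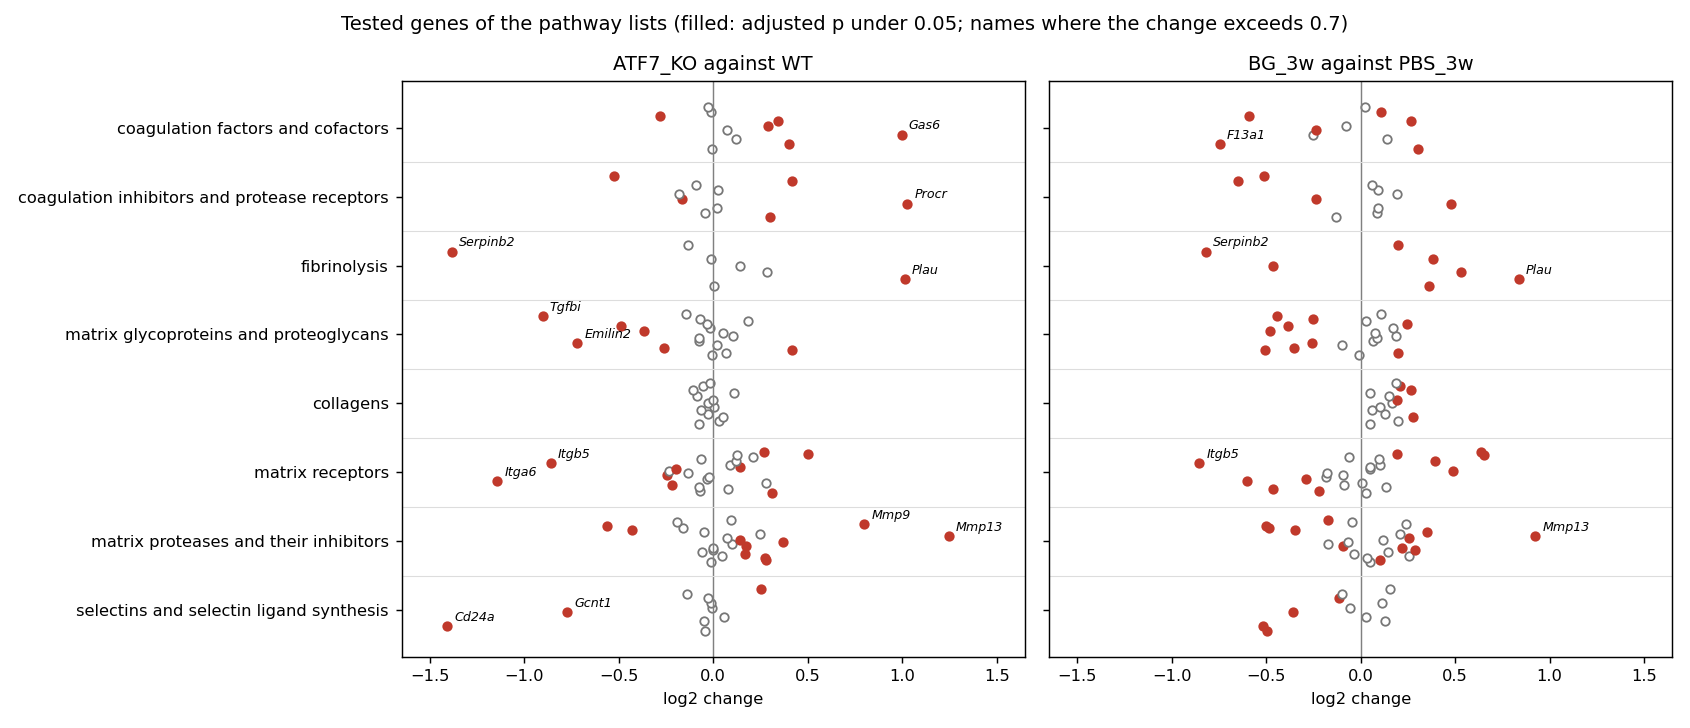
Log2 change of every tested gene of the 8 pathway lists in the knockout against wild type (left) and after BG against PBS (right), 1 point per gene, filled where the limma adjusted p was under 0.05. Serpinb2 lies to the left and Plau and Mmp13 to the right in both panels; the collagens stay near 0 in the knockout.

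Of the tested genes beside F5, F7 and F10, apart from F5, F7 and F10 themselves, none was lower in the knockout or after BG. Of all genes, 10.7% and 21.4% were lower there. F5 lies beside Selp on chromosome 1. On its other side Slc19a2, the next gene, did not pass after BG (log2 change 0.11, limma adjusted p = 0.18). Ccdc181, 2 genes past F5, was higher after BG by 0.17 (limma adjusted p = 0.037). F7 and F10 are adjacent on chromosome 8. Mcf2l, on the far side of F7, was higher after BG by 0.32 (adjusted p = 5.3e-05) and Cul4a, 3 genes past F10, by 0.20 (adjusted p = 0.0032). In PBS against wild type, 12.9% of all genes were lower and 32.7% changed in either direction. Proz, which encodes protein Z and follows F10, was lower there by 0.31 (adjusted p = 0.0079). F10 was lower too, a call lost under 8 of 12 other settings. Slc19a2 and Blzf1, the latter 3 genes past F5, were higher by 0.26 and 0.25 (adjusted p = 0.0058 and 0.0022).

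Marker genes placed the samples among macrophages. The marker counts stand beside 28.3% of all genes called in the knockout and 41.6% after BG. The 8 macrophage markers lay above the floor in every group, and their mean per array ran from 11.35 to 11.61 over wild type, knockout, PBS and BG. Under that mean, 3 of the 8 were higher and 3 lower in the knockout (limma), with Fcgr1, an Fc receptor gene, higher by 1.16 (adjusted p = 1.3e-05), and 3 were lower after BG, by 0.16 for Adgre1 to 0.38 for Mertk. Of 10 markers of dendritic cells and of macrophages that derive from monocytes, 2 were higher and 3 lower in the knockout and 2 higher and 2 lower after BG. In the knockout Mrc1, the mannose receptor gene, was higher by 1.39 (adjusted p = 1.3e-07) and Retnla by 0.40. Cd209a, Ccr2 and H2-Eb1 were lower there by 0.84, 0.43 and 0.29. After BG, Cd209a was lower by 1.31 (adjusted p = 2.1e-05) and Retnla by 0.25, while Irf4 and Zbtb46 were higher by 0.38 and 0.19. Their part in the changes of the 7 genes was not tested. The mean of 8 markers of large peritoneal macrophages, Gata6 among them, was 10.25 ± 0.19 in wild type and 9.66 ± 0.14 in the knockout, and 9.99 ± 0.31 after PBS and 9.61 ± 0.14 after BG (n = 4 each). In all, 5 of the 8 were lower in each of these comparisons (limma), so this list moved with F5, Thbs1 and Vcan, and its part in their changes was not tested.

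Other marker lists moved with them too. Of all genes, 10.7% were lower in the knockout and 21.4% after BG. Of 9 tested B cell markers, 9 were lower in the knockout and 3 after BG, with list means of 8.34 against 7.45 and 8.24 against 7.92. Of 8 cell cycle markers, the knockout had 8 lower and BG 6, with means of 7.80 against 6.80 and 8.06 against 7.54. Their part in the 7 genes' changes was not tested. Platelets, which carry thrombospondin 1, factor V and P-selectin, were followed by 7 markers, 6 of them above the floor and Clec1b under it on all 28 arrays. Their mean per array ran from 7.60 to 7.84 over the same 4 groups. None of the 6 tested was lower, and Pf4, which encodes platelet factor 4, was higher in the knockout by 0.92 (adjusted p = 3.1e-07) and after BG by 0.37 (adjusted p = 0.006). The mesothelial and fibroblast lists had means under the floor in these groups, from 6.04 to 6.22, but these means average over genes on both sides of it. Of 10 mesothelial markers, 3 lay above the floor on all 28 arrays (Krt8, Wt1 and Msln), 4 on some and 3 on none. Of 7 fibroblast markers, 3 lay above it on all 28 (Col1a1, Col1a2 and Col3a1), 2 on some and 2 on none. Of these lists the knockout had 1 fibroblast marker higher, and BG had 2 mesothelial markers higher and 1 fibroblast marker lower. Of 6 hepatocyte markers, Trf and Apoa1 lay above the floor on all 28 arrays, Apoc3 on 5, and Alb, Ttr and Ahsg on none.

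**Figure D5:**
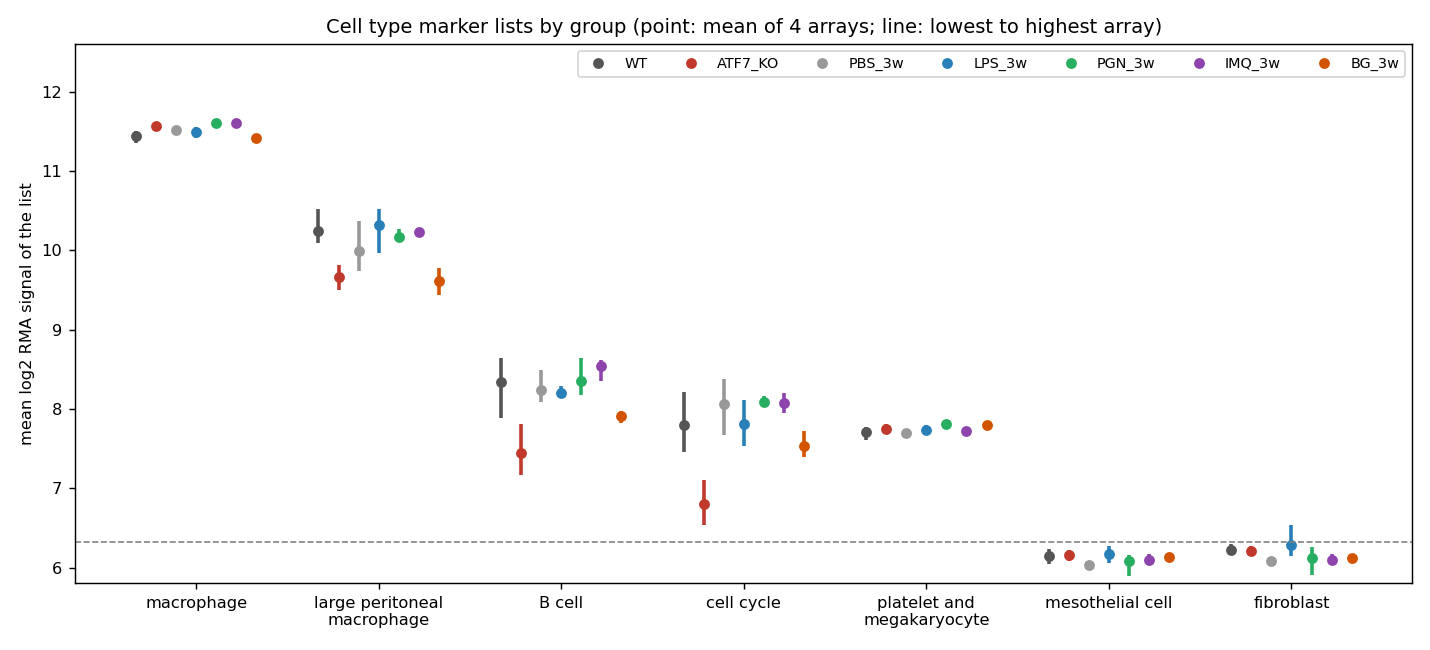
Mean log2 RMA signal of 7 marker lists by group, with the mean of 4 arrays as a point and the lowest to highest array as a line; the dashed line is the floor of 6.32. The lists of large peritoneal macrophages, B cells and the cell cycle are lower in the knockout and after BG than in their controls, while the platelet list stays between 7.60 and 7.84 in wild type, knockout, PBS and BG.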

How the data were processed

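Per the labels' protocols, total RNA (100 ng) was amplified with the WT Expression Kit and hybridised to 1 array per sample. The values deposited by the authors are linear intensities, 1 for each probe set of each array, made with RMA in Affymetrix Expression Console per the submitters' processing notes. RMA as usually run corrects background and normalises quantiles between arrays, which can shrink differences that touch most genes. Software version, genome build and array dates: not given in the sources used here. The median intensity was 107 to 115 per array; the number of arrays limits the precision.

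Here the log2 was taken without further normalisation. Of 35556 probe sets, 21789 have 1 gene symbol; 14800 of these lay above the floor on at least 4 arrays and stand for 13512 genes (the highest mean where a gene has several). Gene names come from the platform table, and a match by Entrez identifier, found for 21698 probe sets, changed 0 symbols. limma 3.58.1 (R 4.3.3) fitted 1 mean per group to all 28 arrays with eBayes and an intensity trend, tested on simulated data. P-values were adjusted by Benjamini-Hochberg per comparison. Permutation tests are exact and two-sided. Figures were drawn with matplotlib 3.10.9.

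The 8 genes and all lists were chosen with earlier results of these data known, so counts over them are descriptions. Named genes were the 8, up to 4 called genes with the smallest p per list, the genes most like each over the arrays, and tested neighbours. Genes of the marker lists, Atf7 and, for the knockout, Pros1 and F13a1 were named outside this rule, after their values were seen. RefSeq windows (GRCm38.p6) matched 5 of the 8 genes, and those of F7 and Vcan, inside the gene span, were not shown; Prg4, Thbs1 and Fn1 are named only. Replicate numbers were not treated as pairs: in no comparison did all 4 same-numbered pairs correlate above 0.1 in their deviations from the group means. For PGN against PBS the 4 values were 0.26, 0.19, 0.11 and 0.048, and for LPS against PBS they ran from -0.20 to 0.45. Whether replicate numbers mark a shared factor was not tested. Alternatives covered scaling, filters, probe set choice, the model, control groups and each array left out.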

Additional observations from a re-analysis of the deposited data

Results flagged for a closer look

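In each of 49 sets of 4 arrays (7 genes in 7 groups), the gap between the outermost array and its neighbour was compared with the whole range of the set by Dixon's criterion. Chance exceeds the limit in about 1 of 20 sets, and 3 of 49 exceeded it. In BG array 3, F10 was at 11.04, under the other 3 arrays of that group by 0.830 of the range. In BG array 2, Prg4 was at 11.58, above the others by 0.894 of the range. In IMQ array 2, Fn1 was at 13.07, above the others by 0.841 of the range. Leaving out any 1 array, these included, kept Prg4 lower after BG (log2 change -0.55 to -0.41, limma adjusted p up to 0.0012).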

How the results depend on the processing

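The counts of 5 lower genes in the knockout and 5 after BG were the same under all settings tried and with each array left out. Over all settings without an omitted array, 472 of 511 single-gene results kept their direction and side of the threshold, and 275 of 336 did with 1 array left out. The counts of called genes among the 7 ranged from 0 to 1 after LPS, 0 to 1 after PGN, 0 to 1 after IMQ and 0 to 3 in PBS against wild type when 1 array was left out; the arrays behind single calls are named with the genes. The IMQ count was 0 without a filter on low signals, without an intensity trend, with only the compared groups, and with the replicate block in those groups. With both control groups together, a setting chosen after seeing the data, it was 2 after IMQ and 2 after PGN, and the replicate block in the compared groups also gave 2 after PGN. Array weights gave 1 after LPS. In PBS against wild type the count was 0 with arrays centred on their medians and without wild-type arrays 1 and 2 together, and 1 without the filter, without the trend, with array weights, with signals under the floor set to it and with only the compared groups. That last call was Thbs1 (adjusted p = 0.03), with F10 and Fn1 both lost. Replicate numbers were not treated as pairs, and whether they mark a shared factor was not tested. With the replicate block in the compared groups the count in PBS against wild type stayed at 2, but Thbs1 passed (adjusted p = 0.012) and F10 did not (0.088). The block also moved the matrix receptors called in the knockout from 9 to 5.

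Counts over all genes moved by over 1.5 times as follows. With only the compared groups they were 2409 in the knockout, 508 after LPS, 272 after PGN and 2066 in PBS against wild type. With the replicate block in those groups they were 1909 in the knockout, 738 after LPS, 190 after IMQ and 2230 in PBS against wild type. Array weights gave 2018 after LPS, 1419 after PGN, 1699 after IMQ and 2728 in PBS against wild type. Both control groups together gave 435 after LPS, 2042 after PGN and 2185 after IMQ. Without wild-type arrays 1 and 2 together they were 2292 in the knockout and 1025 in PBS against wild type. For LPS, renewed quantile normalisation gave 861 and the stricter filter 820. With 1 array left out the counts ranged from 4 to 1558 after LPS (4 without LPS array 2, 172 without PBS array 3, 440 without PBS array 4 and 596 without LPS array 1, 849 without PBS array 2), 283 to 483 after PGN (283 to 341 without PBS array 3 or 4 or PGN array 1, 3 or 4), 400 to 758 after IMQ (400 to 479 without PBS array 3 or 4 or IMQ array 1, 2 or 3) and 2752 to 5306 in PBS against wild type (2783 without wild-type array 1, 2752 without wild-type array 2). The causes were not tested. Centring arrays on their medians moved the share of called genes that were higher from 62.3% to 78.1% in the knockout, 44.1% to 24.3% after LPS and 60.4% to 80.5% in PBS against wild type, and renewed quantile normalisation moved it from 54.4% to 42.5% after IMQ.

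Only changes that had not passed turned their sign outside the omissions. With arrays centred, F5 after LPS was -0.0007, F7 after BG -0.0136, Fn1 after LPS -0.0243 and Fn1 after PGN 0.0004. With quantiles normalised again, F10 was 0.0364 after BG and -0.0037 after IMQ, and F5 and Prg4 in PBS against wild type were -0.0009 and -0.0162. With array weights, F10 after BG was 0.0146, F5 after PGN 0.0473, F7 after BG -0.0463, Fn1 after PGN 0.0264, Prg4 in PBS against wild type -0.0193 and Thbs1 after LPS 0.0328. With both control groups, F10 was -0.0729 after IMQ and -0.0502 after LPS, and Fn1 after LPS was -0.0940. Without wild-type arrays 1 and 2, Vcan in PBS against wild type was 0.2564. With 1 array left out, these changes, none of which had passed, crossed 0. F5 ranged from -0.1181 to 0.0491 after IMQ, -0.0652 to 0.1283 after LPS, -0.13 to 0.0709 after PGN and -0.1329 to 0.2387 in PBS against wild type. F7 after BG ranged from -0.0996 to 0.1037. F10 ranged from -0.0776 to 0.052 after BG, -0.0623 to 0.0673 after IMQ, -0.0396 to 0.09 after LPS and -0.1217 to 0.0078 after PGN. Fn1 ranged from -0.0559 to 0.0769 after LPS and -0.0666 to 0.0662 after PGN. Prg4 ranged from -0.0058 to 0.1339 after IMQ and -0.044 to 0.0958 in PBS against wild type. Thbs1 after LPS ranged from -0.079 to 0.0335, and Vcan in PBS against wild type from -0.2961 to 0.2813. The Vcan values of the knockout lie at the floor and so limit how large its fall can be read.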

Other observations

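Probe set 10338542, which has no gene in the platform table, read 8.07 to 8.18 on the PGN arrays and 7.67 to 8.22 on the IMQ arrays. It read 8.76 to 8.97 on the PBS arrays and 8.63 to 9.22 over all 20 arrays outside the PGN and IMQ groups. It was chosen after its values were seen, as the probe set without a gene on which the PGN and IMQ arrays lay farthest below the others. Of 6207 probe sets without a gene and with a mean above the floor, these arrays all lay below every other array on 19 and above on 11. That share is 0.483%, against 0.629% of the tested genes. The labels do not say which arrays were run together. For deviations from the group means over the 28 arrays, F7 and Fn1 correlated at -0.44, against 0.72 for F10 and Fn1. These values describe the arrays, which share normalisation.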
